A study of Rattus norvegicus with 6 samples.

Results

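The genes described here are those of mitosis, the kinetochore and cytokinesis, the machinery that condenses and separates the chromosomes of a dividing cell and then divides the cell itself. They were taken by symbol from a list of 53 names, 52 of which had a row in the deposited table of 17273 genes. All 52 passed the filter on low counts, which kept 13747 genes in all. Ccnb2 was not analysed here. The measurements came from RNA sequencing of cultured nucleus pulposus cells, the cells of the soft core of the intervertebral disc, from wild-type male Sprague Dawley rats. There were 3 libraries of cells exposed to lactate at 10 mM for 8 h and 3 libraries of cells with no treatment, called lactate and control here. The labels do not give the age or number of the rats, the pH of the medium, or whether lactic acid or a salt was added. They also do not say that replicate libraries are from separate cultures or animals, so p-values here cover only library-to-library spread, part of which may be technical.

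As background, a cell enters mitosis when cyclin-dependent kinase 1, bound to cyclin A or B, becomes active, and many of these genes are transcribed late in the cell cycle. Kinetochores are assembled on centromeres and hold the ends of spindle microtubules, the spindle checkpoint delays anaphase until all chromosomes are attached, and the anaphase-promoting complex then marks securin and cyclin B for destruction. Cells of the disc core divide rarely in the adult animal and divide more in culture, where transcripts of this group mark the dividing cells. In RNA from many cells, fewer dividing cells and less of these transcripts per dividing cell cannot be told apart.

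Promoters of late cell cycle genes are known to carry CHR elements (TTTGAA or TTCGAA), bound by the MuvB complex, and CCAAT boxes, bound by NF-Y. Promoter sequences of 300 bases, with 250 before the annotated start and 50 after it, were taken from RefSeq for the rat assembly GRCr8 and matched 45 of the 52 genes by symbol. Both motifs were searched on both strands after results of these data were known, so the counts are a description with no test. A CHR stood in 35 of the 45 promoters (77.8%), against 1176 of the 8821 promoters that matched a tested gene (13.3%) and 19.7% of all 33469 promoters of that length. CCAAT stood in 34 of 45 (75.6%), against 38.2% of the promoters of tested genes and 37.5% of all promoters. Both motifs stood in 62.2% of the 45 promoters and in 5.58% of the promoters of tested genes. In 2 of these promoters the motifs share letters. The genes lower with lactate had a CHR in 18 of 23 promoters (78.3%), and the genes that were not lower had one in 17 of 22 (77.3%). For CCAAT the shares were 69.6% in the lower genes and 81.8% in the others, and for both motifs together 56.5% and 68.2%. The names Ccna2, Aurkb, Incenp, Ube2c, Kif2c, Tpx2 and Racgap1 had no entry.

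The promoters of 8 genes, chosen after values were seen to cover the 2 higher genes, several lower genes and a partner pair that parted (Spc24 and Spc25), are printed 5′ to 3′ on the strand of the gene. The coordinates are chr20:19265043-19265342 on the plus strand for Cdk1 and chr10:28406277-28406576 on the minus strand for Pttg1, the 2 genes that were higher. They are chr2:33655176-33655475 on the minus strand for Ccnb1, chr1:186147408-186147707 on the plus strand for Plk1, chr13:103760837-103761136 on the minus strand for Cenpf, chr3:74396669-74396968 on the minus strand for Spc25 and chr13:53625334-53625633 on the plus strand for Aspm, which were lower, and chr8:28581250-28581549 on the minus strand for Spc24, which was not called either way. Capitals mark the letters of a CHR (TTTGAA or TTCGAA, or TTCAAA on the other strand) and of a CCAAT box (CCAAT, or ATTGG on the other strand).
Cdk1: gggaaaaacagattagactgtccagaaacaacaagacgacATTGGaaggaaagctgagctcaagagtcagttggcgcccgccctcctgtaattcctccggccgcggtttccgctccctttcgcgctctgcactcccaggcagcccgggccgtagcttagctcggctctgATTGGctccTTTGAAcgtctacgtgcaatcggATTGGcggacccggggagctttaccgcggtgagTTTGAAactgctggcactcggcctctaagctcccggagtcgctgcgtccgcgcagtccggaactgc
Pttg1: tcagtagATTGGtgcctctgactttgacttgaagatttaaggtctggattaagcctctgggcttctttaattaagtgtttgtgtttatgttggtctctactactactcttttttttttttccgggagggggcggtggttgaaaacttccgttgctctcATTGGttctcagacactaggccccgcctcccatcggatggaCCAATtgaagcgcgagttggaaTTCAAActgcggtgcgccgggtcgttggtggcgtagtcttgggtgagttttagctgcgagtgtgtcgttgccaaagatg
Ccnb1: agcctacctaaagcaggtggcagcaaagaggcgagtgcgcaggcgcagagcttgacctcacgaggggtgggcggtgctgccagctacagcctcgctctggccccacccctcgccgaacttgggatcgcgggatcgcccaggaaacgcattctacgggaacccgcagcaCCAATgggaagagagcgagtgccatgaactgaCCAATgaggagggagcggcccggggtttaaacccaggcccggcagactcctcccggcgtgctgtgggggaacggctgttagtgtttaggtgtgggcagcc
Plk1: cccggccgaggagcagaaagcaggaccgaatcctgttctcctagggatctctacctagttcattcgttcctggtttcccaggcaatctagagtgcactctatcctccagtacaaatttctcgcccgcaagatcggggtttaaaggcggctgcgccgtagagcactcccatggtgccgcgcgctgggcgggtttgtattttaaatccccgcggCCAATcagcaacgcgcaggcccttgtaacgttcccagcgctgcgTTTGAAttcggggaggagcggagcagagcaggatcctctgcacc
Cenpf: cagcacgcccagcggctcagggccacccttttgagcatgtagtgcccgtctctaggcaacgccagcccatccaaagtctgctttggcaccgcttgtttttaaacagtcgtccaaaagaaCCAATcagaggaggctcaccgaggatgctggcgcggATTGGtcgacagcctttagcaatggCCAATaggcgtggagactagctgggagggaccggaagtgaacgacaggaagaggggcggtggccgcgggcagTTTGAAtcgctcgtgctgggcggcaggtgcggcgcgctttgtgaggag
Spc25: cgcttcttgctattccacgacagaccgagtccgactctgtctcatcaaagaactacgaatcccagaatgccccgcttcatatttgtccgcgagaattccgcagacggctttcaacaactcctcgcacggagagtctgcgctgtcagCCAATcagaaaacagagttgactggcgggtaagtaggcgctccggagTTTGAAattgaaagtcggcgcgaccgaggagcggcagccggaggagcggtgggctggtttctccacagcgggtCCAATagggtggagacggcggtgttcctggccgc
Spc24: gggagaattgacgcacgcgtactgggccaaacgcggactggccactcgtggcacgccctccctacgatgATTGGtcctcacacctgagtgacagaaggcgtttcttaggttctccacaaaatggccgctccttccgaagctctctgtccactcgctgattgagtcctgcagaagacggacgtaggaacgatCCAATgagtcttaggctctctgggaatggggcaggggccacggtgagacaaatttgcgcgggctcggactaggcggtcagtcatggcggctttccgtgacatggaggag
Aspm: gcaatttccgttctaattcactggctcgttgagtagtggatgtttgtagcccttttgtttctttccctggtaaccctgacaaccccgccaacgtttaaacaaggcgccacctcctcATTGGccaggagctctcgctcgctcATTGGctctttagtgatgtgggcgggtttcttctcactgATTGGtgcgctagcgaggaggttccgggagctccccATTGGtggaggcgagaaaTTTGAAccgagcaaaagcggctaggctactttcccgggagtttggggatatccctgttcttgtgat

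The promoter of Cdk1 holds 2 CHR and 3 CCAAT matches, and that of Pttg1 holds 1 CHR and 3 CCAAT matches. Cenpf, with 1 CHR and 3 CCAAT matches, has the same counts as Pttg1. On the main scale described below Cenpf was lower and Pttg1 higher, and with library totals Pttg1 was not called (-0.16). Any link between these matches and the changes was not tested. The window of Ccnb1 and that of Spc24 each hold 2 CCAAT matches and no match to TTTGAA or TTCGAA, the only CHR forms searched. Spc25 has 1 CHR and 2 CCAAT matches, Plk1 has 1 of each, and Aspm has 1 CHR and 4 CCAAT matches.

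The libraries held 30291357 to 35512356 counts with lactate and 33584741 to 38989574 counts in control, and a listed gene had between 60 and 14836 counts in a library. The 20 highest genes took 31.9% ± 2.03 of the counts with lactate and 20.1% ± 0.742 in control (SD, n = 3 each), so the choice of scale matters. Levels are CPM scaled by TMM (trimmed mean of M-values, which centres the genes of moderate level on no change), written CPM below, and every fold change is lactate over control. On this scale the median log2 fold change of all 13747 tested genes was -0.10, and on plain library totals it was -0.96. Of 11 nucleus pulposus markers with a row, Tbxt and Krt19 had 0 counts in every lactate library and 2 to 4 counts in each control library. The 11 summed to 2491 to 2832 CPM with lactate and 2571 to 2884 CPM in control. Of 9 that passed the filter, 2 were higher, 3 lower and 4 not called, with log2 fold changes from -1.97 to 2.32. The 6 fibroblast and annulus markers with a row summed to 100899 to 145465 CPM with lactate and 29586 to 35442 CPM in control, of which Col1a1 was the main part. Of these 6, Col1a1, Thy1 and Dcn were higher, Mkx and Pdgfra were lower by 2.36 and 1.42 on the log2 scale, and Scx was not called. The 4 macrophage markers with a row summed to 4.09 to 5.40 CPM with lactate and 9.61 to 10.7 CPM in control, with Adgre1 at 0 in every lactate library. In control libraries 2 and 3, 1 of the 4 was also at 0. Only 2 of the 4 passed the filter, 1 higher with lactate (log2 fold change 1.48) and 1 lower (-1.72). The 3 endothelial markers summed to 0.210 to 0.680 CPM and 0.116 to 0.488 CPM. The part of these differences in the results below was not tested.

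Of the 52 genes, 27 were lower with lactate and 2 were higher at an adjusted p under 0.05 (edgeR quasi-likelihood test, Benjamini-Hochberg over all tested genes), and 23 were not called. Over all tested genes 34.6% were called lower and 31.4% higher, so the 27 lower calls (51.9%) stand above the background and the 2 higher calls (3.85%) below it. A fall of at least 2-fold was called for 13 of the 52 genes, a share close to the 22.5% of all tested genes. These 13 were Ccna2, Plk1, Mki67, Ncaph, Cenpa, Cenpe, Cenpf, Ndc80, Spc25, Knl1, Kif4a, Aspm and Racgap1. The median log2 fold change of the 52 genes was -0.60. The 3 lactate libraries were all below the 3 control libraries for 28 genes and all above them for 2, where 38.4% and 33.7% of all tested genes were so placed (64.4% all below with library totals). Directions depend on the scale: 41 of the 52 genes had a negative log2 fold change with TMM and all 52 with library totals, with which 47 were called lower (61.8% of all tested genes) and 0 higher (12.5%), with a median of -1.44. The 5 genes not called lower with library totals were Cdk1, Cdca8, Bub1b, Pttg1 and Sgo1. Summed over the 52 genes, lactate libraries 1, 2 and 3 held 2027, 1791 and 2565 CPM, and control libraries 1, 2 and 3 held 2927, 2763 and 3563 CPM. The lactate sums were all below the control sums, by a margin smaller than the range within either group.

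**Figure D1:**
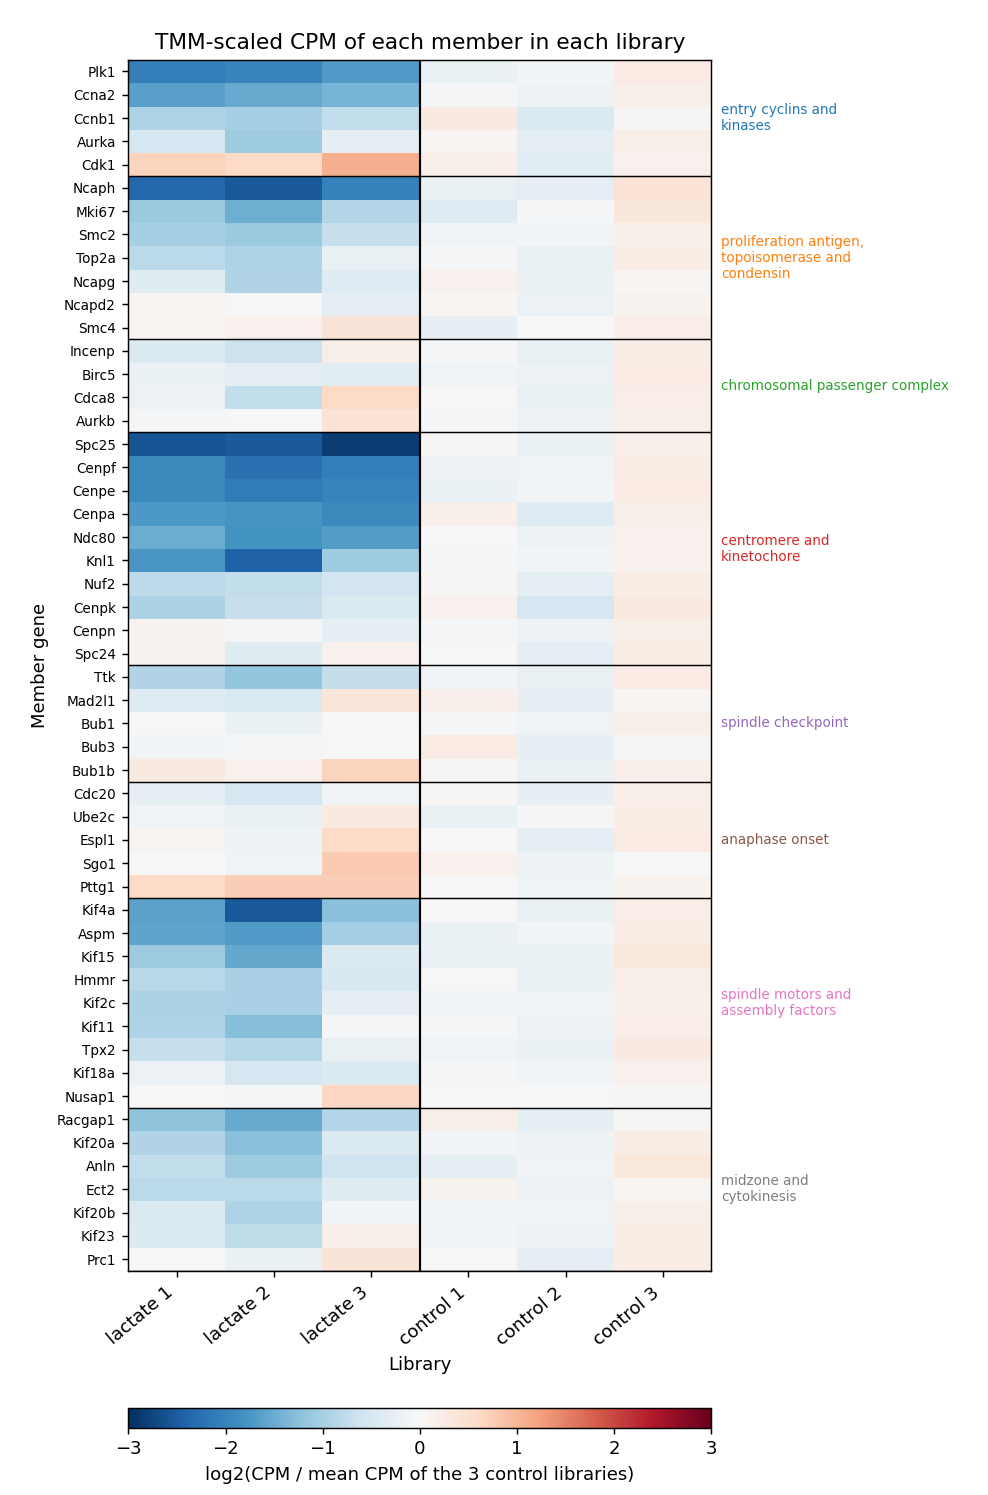
Level of each of the 52 genes in each library, as the log2 ratio of its TMM-scaled CPM to the mean of the 3 control libraries (colour), with genes in rows by role and lactate libraries 1 to 3 left of control libraries 1 to 3. The rows Spc25, Cenpf, Cenpe, Cenpa, Ndc80 and Knl1 and the rows Plk1, Ccna2 and Ncaph are low (blue) in every lactate library, and the Cdk1 and Pttg1 rows are high (red) in every lactate library.

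The libraries of a group were not alike for these genes. Lactate library 3 was the highest of the 3 lactate libraries in 41 of 52 genes (78.8%), against 40.3% of all tested genes, and lactate library 2 was the lowest in 39 (75%), against 34.8%. Control library 3 was the highest of the control libraries in 44 genes (84.6%), against 29.5% of all tested genes. Without lactate library 3, 33 genes were called lower (35% of all tested genes in that fit), 18 of them at least 2-fold, and 2 higher (32%), with a median of -0.74. By the median log2 ratio of lactate library 3 to the mean of lactate libraries 1 and 2, the kinetochore class stood at 0.01 and the other role classes at 0.32 to 0.65. Within the kinetochore class the ratio ran from -0.32 for Cenpn to 0.97 for Knl1 and was positive for 6 of 10 genes.

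The 5 cyclins and kinases of mitotic entry with a row split: 4 were lower, and Cdk1, the catalytic kinase itself, was higher. Ccna2, cyclin A2, had 23.7, 25.7 and 28.0 CPM in lactate libraries 1, 2 and 3, against 72.3, 66.1 and 82.8 CPM in control libraries 1, 2 and 3. Its log2 fold change was -1.52 ± 0.12 (SE; adjusted p = 1.4e-05, edgeR), and the highest lactate library lay far under the lowest control library. Ccnb1, cyclin B1, had 29.0, 27.6 and 33.0 CPM with lactate, against 67.0, 41.7 and 56.9 CPM in control, a log2 fold change of -0.89 ± 0.17 (adjusted p = 0.0019, edgeR). The groups did not overlap, although control library 2 was nearer to the lactate values than the other two. Plk1, the polo-like kinase that acts on centrosomes, kinetochores and the midzone, had 18.1, 18.9 and 23.1 CPM with lactate, against 65.2, 71.6 and 88.9 CPM in control (log2 fold change -1.91 ± 0.16, adjusted p = 1.3e-05, edgeR). Aurka, the centrosomal Aurora kinase, was lower by a smaller amount and its groups overlapped (19.2 ± 5.03 CPM with lactate and 28.5 ± 4.42 CPM in control; log2 fold change -0.57, adjusted p = 0.039, edgeR).

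Cdk1 had 132, 124 and 176 CPM with lactate, against 91.8, 65.9 and 89.998 CPM in control, with every lactate library above every control library. Its log2 fold change was 0.80 ± 0.17 (adjusted p = 0.0032, edgeR) with TMM and -0.04 with library totals, so its higher call depends on the scale. Ccna2 and Ccnb1 fell on both scales, by 2.37 and 1.74 on the log2 scale with library totals. The ratio of Cdk1 to Ccna2 in FPKM (a level per transcript length) does not depend on the scale of a library. It was 8.14, 6.91 and 8.86 with lactate and 1.78, 1.40 and 1.54 in control. The ratio of Cdk1 to Ccnb1 was 6.02, 6.00 and 7.02 with lactate and 1.80, 2.07 and 2.08 in control. Both ratios were several times as high in each lactate library as in any control library.

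Among the proliferation antigen, topoisomerase and the condensin I subunits, 5 of 7 were lower and none was higher. Mki67, which coats mitotic chromosomes and is the usual stain for dividing cells, had 115, 90.03 and 136 CPM with lactate, against 192, 242 and 315 CPM in control. Its log2 fold change was -1.13 ± 0.20 (adjusted p = 0.0012, edgeR) and the groups were apart. Mki67 has one of the longest transcripts of the table, and the value depended on the length control given further down. Top2a, the topoisomerase that untangles sister DNA, had 102, 94.5 and 154 CPM with lactate, against 176, 155 and 211 CPM in control (log2 fold change -0.63 ± 0.20, adjusted p = 0.02, edgeR). Lactate library 3 came just under control library 2 for this gene, so its groups were barely apart.

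The 5 subunits of condensin I, the ring complex that compacts mitotic chromosomes, did not move together. Ncaph, the kleisin that closes the ring, had 6.17, 5.50 and 7.76 CPM with lactate, against 27.1, 25.6 and 42.0 CPM in control, a log2 fold change of -2.28 ± 0.23 (adjusted p = 4.3e-05, edgeR). Smc2, one of the ATPase arms, had 46.8, 43.0 and 57.6 CPM with lactate, against 87.0, 88.4 and 104 CPM in control (log2 fold change -0.92 ± 0.14, adjusted p = 0.0004, edgeR). For both, the groups were clearly apart, and Ncapg, a HEAT-repeat subunit, was lower by less (log2 fold change -0.54, adjusted p = 0.022, edgeR). Smc4, the other ATPase arm, averaged 144 ± 17.8 CPM with lactate and 126 ± 19.3 CPM in control (SD, n = 3 each) and was not called. Ncapd2, the second HEAT-repeat subunit, averaged 50.3 ± 6.02 CPM and 52.5 ± 5.27 CPM and was not called either. With library totals Smc4 and Ncapd2 were lower too, by 0.65 and 0.93 on the log2 scale, where the median of all tested genes was -0.96.

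The centromere and kinetochore genes had the lowest median log2 fold change of the 8 role classes, at -1.64, with TMM scaling. In this class 7 of 10 were lower, 6 of them at least 2-fold, and none was higher. With library totals all 10 were lower, against 61.8% of all tested genes. Cenpf, a large protein of the outer kinetochore corona, had 27.4, 22.2 and 25.0 CPM with lactate, against 94.5, 98.2 and 124 CPM in control. Its log2 fold change was -2.08 ± 0.14 (adjusted p = 5.9e-06, edgeR), and the lactate libraries lay close to each other. Cenpe, a plus-end directed motor of the same corona, had 22.6, 19.9 and 21.4 CPM with lactate, against 75.3, 80.7 and 102 CPM in control (log2 fold change -2.01, adjusted p = 6.3e-06, edgeR). Cenpa, the histone H3 variant that marks centromeres, averaged 5.21 ± 0.383 CPM with lactate and 18.2 ± 3.71 CPM in control (log2 fold change -1.80, adjusted p = 5.2e-05, edgeR). Knl1, the scaffold to which checkpoint proteins bind, averaged 10.1 ± 4.58 CPM with lactate and 31.4 ± 2.61 CPM in control (log2 fold change -1.64, adjusted p = 0.0011, edgeR). The groups overlapped for none of these 4 genes, and the lactate libraries of Knl1 spread more than those of the other 3. Cenpk and Cenpn, which belong to the inner centromere network, were not called, at 3.28 ± 0.58 and 17.9 ± 2.51 CPM with lactate and 5.26 ± 1.40 and 18.8 ± 2.32 CPM in control.

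The 4 subunits of the NDC80 complex, the rod that holds microtubule ends, are present in equal numbers in the protein complex, but their transcripts differed by 2.63 on the log2 scale between the most and the least lowered. Spc25 had 2.81, 2.96 and 2.38 CPM with lactate, against 17.4, 14.8 and 18.9 CPM in control. This was the largest fall among the 52 genes, with a log2 fold change of -2.65 ± 0.18 (adjusted p = 5.4e-06, edgeR) and no overlap. Spc24, its partner at the inner end of the rod, had 11.4, 8.23 and 11.7 CPM with lactate, against 10.8, 8.62 and 12.5 CPM in control (log2 fold change -0.02 ± 0.20, adjusted p = 0.93, edgeR). The groups of Spc24 overlapped, with lactate library 2 just under the lowest control library. Ndc80 and Nuf2, the pair at the microtubule end, were lower by 1.65 and 0.70 on the log2 scale (adjusted p = 1.4e-05 and 0.0039, edgeR).

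The FPKM ratio of Spc24 to Spc25 was 5.92, 4.01 and 7.20 in lactate libraries 1, 2 and 3, and 0.899, 0.843 and 0.957 in control libraries 1, 2 and 3. The ratio of Nuf2 to Spc25 was 3.96, 3.90 and 5.46 with lactate and 1.12, 1.06 and 1.18 in control. With the length trend removed, the log2 fold changes of the 4 subunits still spanned 2.37. In control the 4 transcripts of the complex were thus near parity in level per length, and with lactate they were not. Within condensin I, the ratio of Smc4 to Ncaph was 14.2, 16.98 and 14.3 with lactate and 2.62, 3.35 and 2.31 in control, and that of Smc2 to Smc4 averaged 0.269 ± 0.0202 with lactate and 0.590 ± 0.0543 in control (SD, n = 3 each). Over the 26 pairs of partners compared, the exact two-sided permutation test over the 6 libraries reached p = 0.1 for each of these ratios, the smallest value it can give, and 0.13 after Benjamini-Hochberg adjustment over the 26 pairs, so no ratio can pass a threshold of 0.05 in this design. The pairs were chosen after values of the genes were seen.

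**Figure D2:**
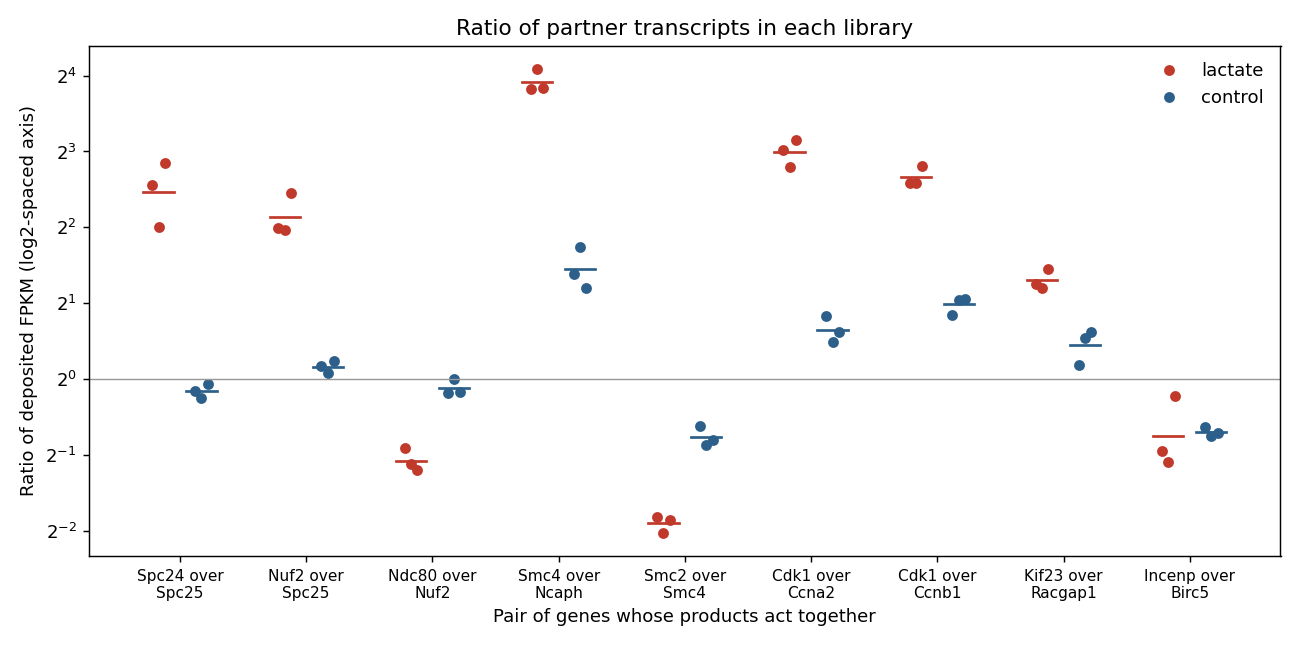
FPKM ratios of partner transcripts in each library (points, log2-spaced axis), with lactate left of control for each pair and a bar at the mean of the log values of each group. The ratios of Spc24 to Spc25, Smc4 to Ncaph and Cdk1 to Ccna2 are apart between the groups, while Incenp to Birc5 averages 0.616 in both.

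The chromosomal passenger complex, which carries Aurora B kinase to centromeres and later to the midzone, had 0 of 4 members called in either direction in edgeR, 0 at an unadjusted p under 0.05, and 0 called by DESeq2 or limma-voom. Its median log2 fold change was -0.13. With library totals 3 of the 4 were lower in edgeR, Aurkb by 0.71, Birc5 by 1.12 and Incenp by 1.10 on the log2 scale. The class median was then -0.96, against -0.96 over all tested genes, of which 61.8% were lower on that scale. With the level trend removed Birc5 and Incenp were lower, as were 38.5% of all tested genes. Aurkb, its kinase, averaged 42.3 ± 7.71 CPM with lactate and 38.4 ± 4.31 CPM in control. Birc5, survivin, had 19.6, 18.6 and 18.0 CPM with lactate, against 20.8, 19.8 and 26.4 CPM in control (log2 fold change -0.25 ± 0.14, adjusted p = 0.15, edgeR), with groups that were apart by a narrow gap. Incenp, the scaffold, averaged 41.6 ± 12.9 CPM and 49.9 ± 7.86 CPM. Cdca8, borealin, averaged 39.9 ± 18.6 CPM with lactate and 39.96 ± 5.65 CPM in control. The lactate libraries of Cdca8 differed from each other by more than the groups did, from 23.9 to 60.3 CPM. The 4 log2 fold changes of this complex spanned 0.40, against 2.63 for NDC80 and 2.48 for condensin I, and 0.96 once the length trend was removed, when Birc5 was called lower.

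Of the 5 spindle checkpoint genes, Ttk was lower and the other 4 were not called. Ttk, the kinase that starts checkpoint signalling at kinetochores, had 18.0, 15.1 and 20.7 CPM with lactate, against 32.2, 28.9 and 40.2 CPM in control (log2 fold change -0.91 ± 0.17, adjusted p = 0.0014, edgeR), with no overlap. Bub3, the adaptor of the BUB proteins, had 38.2, 38.9 and 40.4 CPM with lactate, against 48.0, 33.9 and 38.8 CPM in control (log2 fold change -0.04 ± 0.14, adjusted p = 0.81, edgeR). Bub1, the kinase, averaged 50.4 ± 3.78 CPM with lactate and 52.5 ± 5.82 CPM in control. The lactate values of Bub1 and Bub3 lay within the range of control or close to it. Bub1b, BubR1 of the mitotic checkpoint complex, averaged 50.7 ± 9.99 CPM and 39.04 ± 4.68 CPM (log2 fold change 0.38, adjusted p = 0.063, edgeR), and Mad2l1, which binds Cdc20, averaged 20.6 ± 6.92 CPM and 22.3 ± 3.16 CPM. With library totals 4 of the 5 were lower, Ttk by 1.76, Mad2l1 by 0.95, Bub1 by 0.91 and Bub3 by 0.90 on the log2 scale. Bub1b, at -0.47, was not called. On that scale 61.8% of all tested genes were lower, with a median of -0.96.

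Among the 5 genes of anaphase onset none was lower and Pttg1 was higher with TMM. With library totals Cdc20, Ube2c and Espl1 were lower, by 1.13, 0.85 and 0.64 on the log2 scale, and none was higher. On that scale 61.8% of all tested genes were lower and 12.5% higher. The class median was then -0.64, against -0.96 over all tested genes. Pttg1, securin, which inhibits separase until anaphase, had 18.2, 20.2 and 19.99 CPM with lactate, against 12.1, 10.99 and 12.9 CPM in control. Its log2 fold change was 0.69 ± 0.13 with TMM (adjusted p = 0.0016, edgeR) and -0.16 with library totals (adjusted p = 0.35, edgeR). Its higher call thus depends on the scale, as it does for Cdk1. Cdc20, the activator of the anaphase-promoting complex, had 63.7, 53.6 and 71.7 CPM with lactate, against 78.6, 64.8 and 86.6 CPM in control (log2 fold change -0.28 ± 0.15, adjusted p = 0.12, edgeR), with overlap. Ube2c, the ubiquitin-conjugating enzyme of that complex, averaged 45.9 ± 8.06 CPM with lactate and 45.8 ± 7.17 CPM in control. Espl1, separase, averaged 49.1 ± 13.4 CPM and 42.7 ± 7.63 CPM, and Sgo1, shugoshin, the protector of centromeric cohesion, averaged 17.5 ± 6.30 CPM and 14.4 ± 1.44 CPM. For Espl1 and Sgo1 lactate library 3 was the highest of all 6, at 64.1 and 24.8 CPM.

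Of 9 spindle motors and assembly factors, 6 were lower and none was higher, and with library totals all 9 were lower (61.8% of all tested genes). Aspm, which holds microtubule minus ends at spindle poles, had 16.7, 15.4 and 24.6 CPM with lactate, against 43.8, 47.7 and 58.9 CPM in control (log2 fold change -1.40 ± 0.20, adjusted p = 0.00029, edgeR). Kif4a, a chromosome-bound kinesin, had 14.2, 7.48 and 17.9 CPM with lactate, against 42.3, 36.7 and 49.3 CPM in control (log2 fold change -1.69 ± 0.28, adjusted p = 0.00074, edgeR). Both had no overlap, and lactate library 2 was the lowest of all libraries for each. Hmmr, a spindle pole protein, Kif15, a plus-end motor, Kif2c, a microtubule depolymerase, and Tpx2, the activator of Aurora A, were lower by 0.56 to 0.93 on the log2 scale. Kif11, the motor that separates spindle poles, averaged 39.5 ± 18.2 CPM with lactate and 62.3 ± 8.61 CPM in control (adjusted p = 0.069, edgeR), and lactate library 3 alone, at 60.2 CPM, reached the control range. Kif18a, which limits the swings of chromosomes at the spindle centre, averaged 12.1 ± 1.46 CPM and 15.7 ± 1.16 CPM and lay at the threshold (adjusted p = 0.05, edgeR). Nusap1, a microtubule-bundling protein, averaged 33.6 ± 9.24 CPM and 28.8 ± 0.729 CPM and was not called.

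Of 7 genes of the midzone and cytokinesis, 4 were lower and none was higher. With library totals all 7 were lower (61.8% of all tested genes). Racgap1, the GTPase-activating subunit of centralspindlin, had 23.3, 19.0 and 29.1 CPM with lactate, against 61.1, 44.9 and 55.7 CPM in control (log2 fold change -1.18 ± 0.18, adjusted p = 0.00045, edgeR). Kif23, the motor of the same complex, averaged 60.1 ± 19.5 CPM with lactate and 73.4 ± 10.9 CPM in control and was not called (adjusted p = 0.28, edgeR). The FPKM ratio of Kif23 to Racgap1 averaged 2.48 ± 0.228 with lactate and 1.38 ± 0.211 in control (SD, n = 3 each; exact permutation p = 0.1, adjusted 0.13). Anln, anillin, the scaffold of the contractile ring, had 145, 116 and 162 CPM with lactate, against 202, 227 and 303 CPM in control (log2 fold change -0.79 ± 0.17, adjusted p = 0.0037, edgeR). Ect2, the exchange factor that activates RhoA, and Kif20a, a midzone kinesin, were lower by 0.65 and 0.83 on the log2 scale. Prc1, the protein that bundles midzone microtubules, averaged 153 ± 32.7 CPM with lactate and 144 ± 24.2 CPM in control, and Kif20b, another midzone kinesin, averaged 31.8 ± 8.81 CPM and 43.3 ± 5.22 CPM, with neither called.

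**Figure D3:**
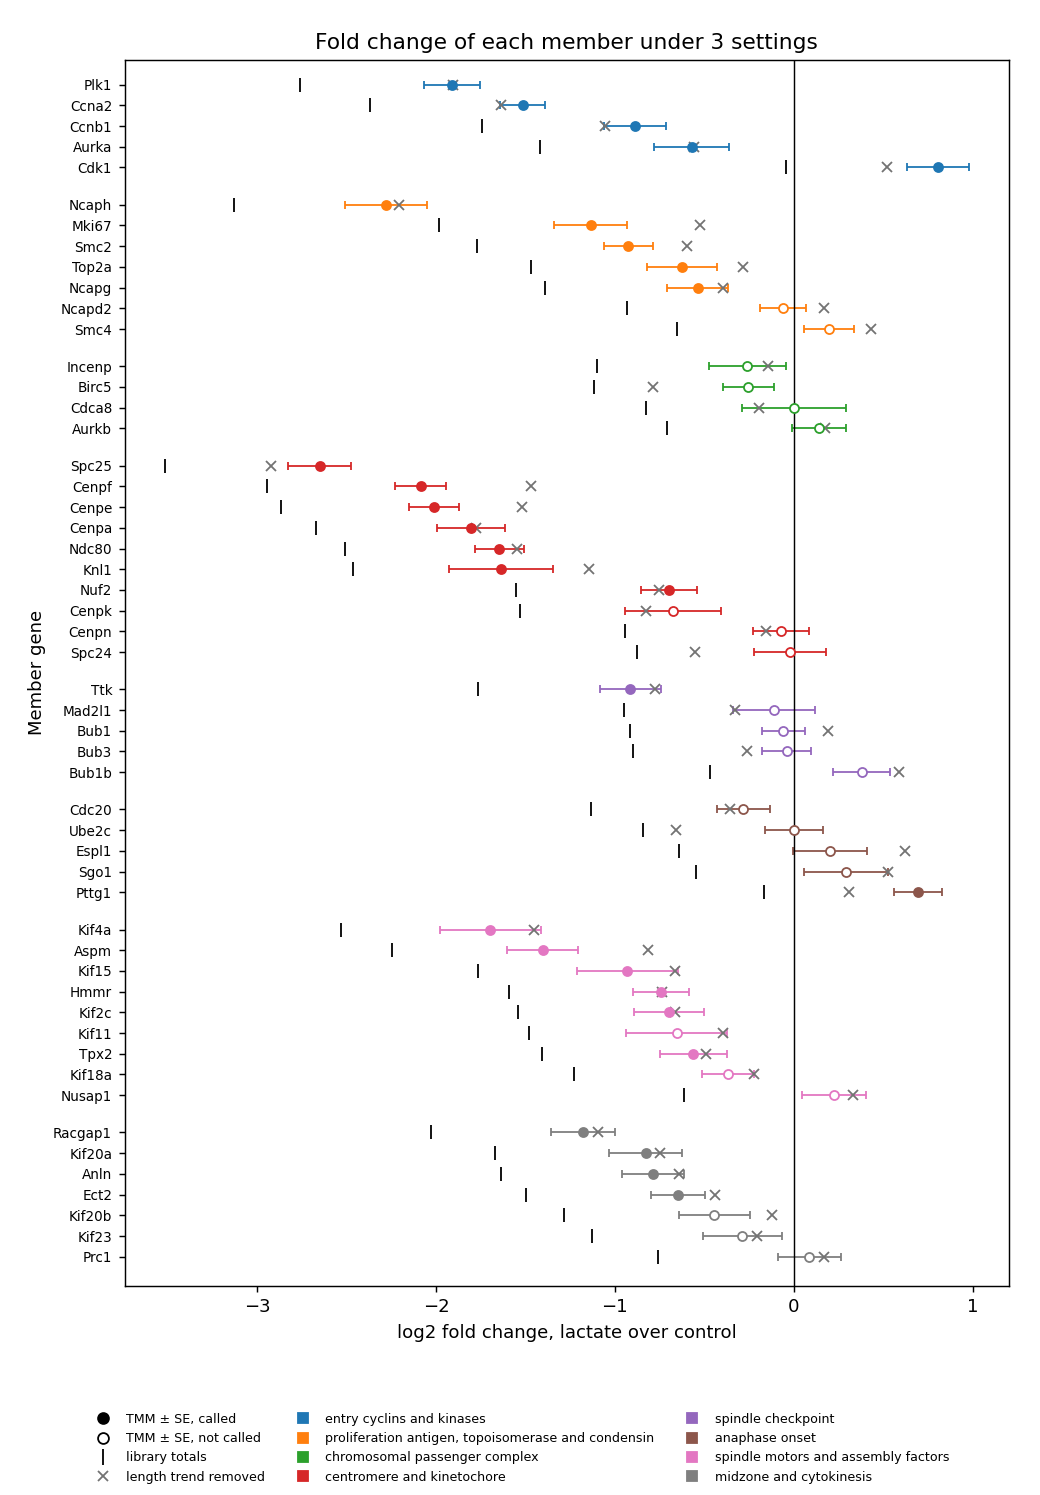
Log2 fold change of lactate over control for each of the 52 genes with TMM scaling (points with standard error bars) beside its values on library totals (ticks) and after removal of the length trend (crosses), grouped by role, with open points for genes that were not called. With TMM the kinetochore class reaches -2.65, the class with condensin -2.28 and the entry class -1.91, and the passenger complex lies near 0. All 52 values are negative with library totals.

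Compared per length, the levels themselves also spread. In control the group means ran from 4.20 FPKM for Cenpk to 95.1 FPKM for Anln, with a median of 17.6 FPKM, and with lactate they ran from 0.911 FPKM for Knl1 to 85.8 FPKM for Cdk1, with a median of 7.61 FPKM. The lactate range thus reached lower. On the FPKM scale the median log2 fold change of all 13747 tested genes was -0.92 (limma-trend on log2(FPKM + 0.1)). A fall in FPKM was thus common over the table. On the CPM scale, the median coefficient of variation between libraries was 18.4% with lactate and 14.99% in control.

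Transcript length was controlled because fold changes fell with length over the whole table. Relative length, taken as count over FPKM within a library with the median gene set to 1, correlated with the log2 fold change at r = -0.23 over the 13747 tested genes and at r = -0.30 over the 52 genes (rho = -0.24 and -0.26), given as descriptions across genes. In the decile of tested genes with the longest transcripts, 52.1% were called lower and the median was -0.60. Of the 52 genes 9 lay in that decile, and 7 of these were lower. Of the 37 genes above the median length 23 were lower, and of the 15 at or below it 4 were. With the length trend of each library removed, 29 of the 52 genes were lower (35.7% of all tested genes), 12 of them at least 2-fold, and 4 were higher (28.9%), with a median of -0.54 against -0.17 over all tested genes. The 4 were Cdk1 at 0.52, Smc4 at 0.43, Bub1b at 0.59 and Espl1 at 0.62. Top2a at -0.29, Ncapg at -0.40 and Pttg1 at 0.31 lost their calls, and Birc5 at -0.78, Cenpk at -0.83, Spc24 at -0.55 and Ube2c at -0.66 became lower. The drop of the long transcripts shrank, to -0.53 for Mki67, -1.47 for Cenpf and -0.81 for Aspm, while Spc25, shorter than the median, stood at -2.92. Mki67 was not called (-0.36, adjusted p = 0.085, edgeR) when the overall shift was removed with the length trend, a setting added after seeing the data.

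**Figure D4:**
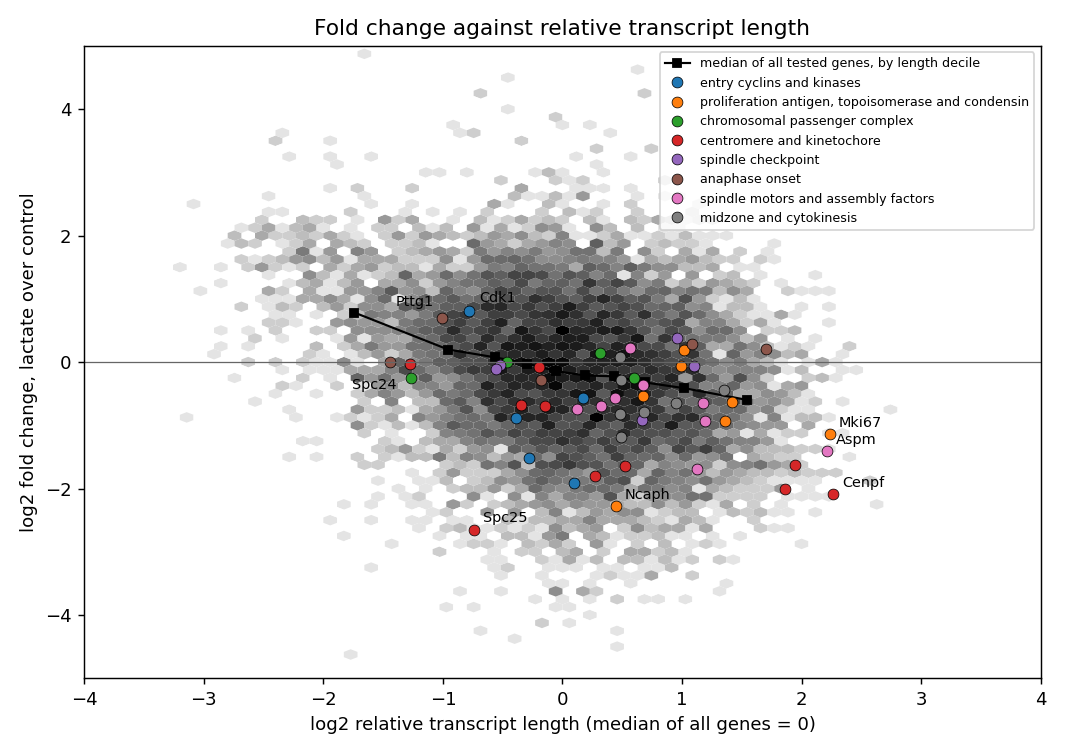
Log2 fold change (lactate over control, TMM) against relative transcript length (log2 axis) for all 13747 tested genes (grey cells, darker where more genes lie; genes beyond the axis limits are not drawn) and the 52 genes (points, coloured by role), with squares at the median of each length decile of all tested genes. The squares decline with length to -0.60 in the longest decile, and Spc25, Spc24, Cdk1 and Pttg1, all shorter than the median gene, lie from -2.65 to 0.80.

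Other genes of the same processes were read from lists of 160 tested genes chosen with earlier results known. Of these, 75 were lower and 31 higher, with a median of -0.45. These are 46.9% and 19.4% of the 160, against 34.6% and 31.4% of all tested genes. With library totals 124 were lower and 8 higher, against 61.8% and 12.5% of all tested genes. With the length trend removed, as described above, 69 were lower and 25 higher, against 35.7% and 28.9% of all tested genes. Of 17 subunits of the anaphase-promoting complex and Cdh1, 4 were lower (23.5%) and 7 higher (41.2%). With library totals 10 were lower and 2 higher, close to the shares of all tested genes on that scale (61.8% and 12.5%). Anapc5, a scaffold subunit, averaged 765 ± 72.1 CPM with lactate and 320 ± 10.95 CPM in control (log2 fold change 1.26), and Cdc23, another scaffold subunit, averaged 12.4 ± 0.823 CPM and 28.8 ± 2.11 CPM (-1.21). Anapc11, the RING subunit, stood at 1.28 and Anapc1, the largest scaffold, at -0.67. Of 30 other centromere and kinetochore genes, 18 were lower (60%) and 6 higher, with a median of -0.96. Among these Cenpo, of the inner centromere, averaged 0.793 ± 0.188 CPM with lactate and 5.01 ± 0.742 CPM in control (-2.66), Mad1l1, which recruits Mad2 to kinetochores, averaged 5.08 ± 0.656 CPM and 17.8 ± 1.32 CPM (-1.81), and Zwint, which binds Knl1, averaged 220 ± 9.82 CPM and 42.3 ± 0.434 CPM (2.38). Cenpl, also of the inner centromere, stood at 0.79, and at -0.06 with library totals. The rise of Zwint and the fall of its partner Knl1 both held with library totals. Of 14 cohesin genes 8 were lower (57.1%) and 3 higher, with Pds5b, a cohesin regulator, at -1.77, Stag1, a cohesin subunit, at -0.998, and Cdca5, sororin, which protects cohesion, at 1.72. With the length trend removed 7 of the 14 were lower and 5 higher. Wapl, which releases cohesin, stood at 0.82, and at -0.02 with library totals.

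Of 16 genes of the switch that turns CDK1 on and off, 4 were lower (25%) and 8 higher (50%), with a median of 0.30. With library totals 7 were lower and 2 higher, against 61.8% and 12.5% of all tested genes. Cks2, a small subunit that binds CDK1, averaged 103 ± 3.15 CPM with lactate and 21.8 ± 3.27 CPM in control (log2 fold change 2.25, and 1.38 with library totals). Its log2 fold change was thus positive on both scales, unlike that of Cdk1. Cdc25b, a phosphatase that activates CDK1, averaged 17.01 ± 3.02 CPM with lactate and 45.6 ± 5.69 CPM in control (-1.42). Ccnf, cyclin F, stood at -1.60 and Ppp2r2a, a regulatory subunit of phosphatase PP2A, at 1.48. Of 18 MuvB, B-Myb, FOXM1 and E2F regulators, 11 were lower (61.1%) and 1 higher. Foxm1, an activator of late cell cycle genes, averaged 11.3 ± 2.502 CPM and 33.8 ± 6.20 CPM (-1.58), Mybl2, B-Myb, averaged 33.3 ± 2.31 CPM and 55.6 ± 6.94 CPM (-0.74), and E2f8, a repressor of the E2F family, averaged 0.665 ± 0.378 CPM and 13.01 ± 4.18 CPM (-4.25), with its relative E2f7 at -2.58. The 1 higher was Rbbp4, a histone-binding subunit of MuvB and other complexes, at 0.73, and -0.12 with library totals.

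Of 23 other spindle genes 8 were lower and 4 higher, a lower share of 34.8% that is near the 34.6% of all tested genes, with Kif14, a cytokinesis kinesin, at -1.87, Ckap2l, a spindle protein, at -1.84 and Ckap2, a spindle microtubule protein, at 2.30. Haus8, of the augmin complex that branches microtubules, stood at 0.90, and at 0.05 with library totals. Of 19 other cytokinesis and abscission genes 9 were lower (47.4%) and 2 higher, with Rock2, a kinase under RhoA, at -2.66, Septin11, a septin, at -1.34 and Rhoa itself at 1.12. Chmp2a, of the ESCRT-III complex that cuts the last bridge between daughter cells, stood at 0.68, and at -0.17 with library totals. Of 20 centrosome and centriole genes 12 were lower (60%) and none higher, with Ccp110, a cap of the centriole, at -2.67 and Cdk5rap2, a scaffold of the pericentriolar material, at -1.42. With the length trend removed 8 of the 20 were lower, nearer to the 35.7% of all tested genes. Of 3 condensin II subunits Ncapd3 was lower, at -1.48. Of 32 DNA replication genes, taken from the phase before mitosis, 16 were lower (50%) and 6 higher (18.8%), with a median of -0.46: Cdc6, a loader of the replicative helicase, averaged 2.63 ± 0.3003 CPM with lactate and 17.4 ± 2.05 CPM in control (-2.73), and Pcna, the sliding clamp, averaged 153 ± 7.30 CPM and 69.7 ± 13.1 CPM (1.13, and 0.27 with no call with library totals). Mcm4, a helicase subunit, stood at -1.45 and Cdt1, a helicase loader, at 1.06. With library totals 26 of the 32 were lower and 0 higher, against 61.8% and 12.5% of all tested genes. Cdt1 was thus not called higher on that scale. Each gene named from these lists passed an adjusted p of 0.05 in edgeR with TMM.

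In the authors' deposited table of selected genes, 13 of the 52 genes were listed, all as down and 0 as up, where 21.3% of the genes of the full table were selected as down and 15.5% as up. The share listed as down was thus close to the 21.3% of all genes, and the share listed as up was below the 15.5%. By the false discovery rate that the authors deposited, 28 of the 52 genes were under 0.05 with a negative log2 fold change. At that threshold 2 had a positive one. The share of all genes under that rate was not taken, so these counts have no background here.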

How the data were processed

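RNA of 6 libraries of rat nucleus pulposus cells, 3 given lactate and 3 untreated, was measured by mRNA sequencing. The authors deposited whole-number counts and FPKM per gene, with log2 fold changes, p-values and false discovery rates of their own, per the file headers. The submitters' processing notes name the mouse builds GRCm38 and mm10, although the samples are rat. Of the 17273 gene names, 14063 (81.4%) matched a rat symbol or synonym in RefSeq. The aligner and the counter are not given in the labels, so reads of near-identical copies and of overlapping genes may be shared. Genes with no row were not analysed here.

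Deposited counts were tested with edgeR 4.0.16 in R 4.3.3 (filterByExpr, TMM, glmQLFit and glmQLFTest, group as the only term), with Benjamini-Hochberg adjustment over 13747 genes and a threshold of 0.05. The SE is the log2 fold change over the root of F. Alternatives used limma 3.58.1, DESeq2 1.42.0, other scaling, other filters, a replicate block, and a lowess trend (span 0.3) on relative length or on level taken from each library. The scripts were tested on simulated data. No 2 libraries were identical. The correlation of same-numbered libraries' deviations was 0.00776, 0.0381 and 0.0840, which does not show that the numbers pair them. With so few libraries it cannot exclude pairing either. Only number 3 had its same-numbered library as best match. The summed levels of the listed genes had the same order in both groups, with library 3 highest and library 2 lowest.

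The genes, the other lists and the alternatives were chosen with earlier results of these data known. Values in every library are given for 9 genes chosen by name, for genes called higher and, in each role class, for the 2 genes called lower with the smallest p. Of each list of other genes, up to 2 with the smallest p in each direction are named. Foxm1, Mybl2 and Cenpe were added after their values were seen. Spc24, given in every library beside its partner Spc25, also lies outside these rules.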

Additional observations from a re-analysis of the deposited data

How the results depend on the processing

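Of the 27 genes lower with lactate, 22 were lower in all 18 planned settings; Aurka, Top2a, Ncapg, Kif15 and Tpx2 were not. Neither higher call held in all. With library totals 47 genes were lower, 0 higher and 35 lower by at least 2-fold (median -1.44). Limma-trend on log2(FPKM + 1) gave 48, 0 and 34 (-1.34), and on log2(FPKM + 0.1) it gave 48, 0 and 36 (-1.46). Of all tested genes, 61.8% were lower and 12.5% higher with library totals. These limma-trend fits called 10540 and 10507 of all 13747 tested genes, with 16.9% and 16.8% of these calls higher. The share of all tested genes that fell at least 2-fold was taken with TMM only (22.5%). With the length trend removed 4 were higher (28.9% of all tested genes). With the level trend removed 40 were lower, 23 by at least 2-fold, and 1 was higher (38.5% and 25% of all tested genes were lower and higher). With the length trend and the overall shift removed (chosen after seeing the data) 22 were lower and 8 higher (30.5% and 33.5% of all tested genes). Leaving out each library in turn gave 22 to 33 lower (22 without control library 3, 33 without lactate library 3), 2 to 3 higher, 12 to 18 lower by at least 2-fold, and a median of -0.74 to -0.43. Those fits tested 13915 to 14117 genes and called 8026 to 9407 of them, with 47.7% to 49.0% of these calls higher. The fit with the replicate block gave 29 lower, 3 higher and a median of -0.62, for numbers that are not known to pair the libraries. It called 8814 of all 13747 tested genes, with 47.5% of these calls higher.

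Log2 fold changes of the opposite sign to the TMM value, most of them of genes not called, were as follows, and the cause was not tested. With library totals, limma-trend on log2(FPKM + 1) and limma-trend on log2(FPKM + 0.1), in that order, they were -0.044, -0.060 and -0.061 for Cdk1, -0.65, -0.65 and -0.67 for Smc4, -0.71, -0.41 and -0.44 for Aurkb, -0.83, -0.92 and -0.96 for Cdca8, -0.47, -0.46 and -0.50 for Bub1b, -0.85, -0.86 and -0.88 for Ube2c, -0.16, -0.16 and -0.17 for Pttg1, -0.64, -0.59 and -0.68 for Espl1, -0.55, -0.48 and -0.62 for Sgo1, -0.62, -0.56 and -0.62 for Nusap1, and -0.76, -0.78 and -0.79 for Prc1. With the level trend removed they were -0.59 for Smc4, -0.26 for Aurkb, -0.39 for Cdca8, 0.043 for Spc24, -0.056 for Bub1b, -0.44 for Ube2c, -0.24 for Espl1, -0.088 for Nusap1 and -0.73 for Prc1. With the length trend removed they were 0.17 for Ncapd2, -0.20 for Cdca8, 0.19 for Bub1 and -0.66 for Ube2c. With the overall shift also removed they were 0.34 for Ncapd2, 0.024 for Incenp, -0.031 for Cdca8, 0.015 for Cenpn, 0.36 for Bub1, -0.49 for Ube2c and 0.046 for Kif20b. Upper-quartile factors gave -0.021 for Aurkb, -0.17 for Cdca8, -0.16 for Ube2c and -0.076 for Prc1. RLE factors gave 0.020 for Spc24 and 0.0037 for Bub3, and DESeq2 gave 0.021 and 0.0038. Cdca8 stood at -0.033 with no filter, -0.0039 with a CPM of at least 1 in 3 libraries, -0.064 with limma-voom and -0.090 with the replicate block, and Ube2c at -0.034, -0.0041 and -0.0017 with no filter, the CPM filter and the replicate block. Leaving out each library in turn gave -0.14 to 0.061 for Ncapd2, -0.40 to 0.27 for Cdca8, -0.17 to 0.054 for Cenpn, -0.16 to 0.13 for Spc24, -0.12 to 0.030 for Bub1, -0.15 to 0.10 for Bub3, -0.39 to 0.038 for Mad2l1, -0.12 to 0.13 for Ube2c, -0.011 to 0.36 for Espl1, -0.017 to 0.46 for Sgo1 and -0.065 to 0.22 for Prc1.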
